A study of Mus musculus with 2 samples.

Results

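This account covers 9 genes of the mitochondrial outer membrane, of mitophagy and of mitochondrial shape, out of 32285 genes in the count matrices. They are the voltage-dependent anion channels *Vdac1*, *Vdac2* and *Vdac3*, the mitophagy receptors *Bnip3*, *Bnip3l* and *Fundc1*, the kinase *Pink1*, and the GTPases *Opa1* and *Dnm1l*. They were taken by gene symbol, each symbol marked 1 row of both matrices, and no measured value entered the rule. *Opa1* acts in fusion and *Dnm1l* in fission, so the group spans both sides of mitochondrial dynamics. The study discussed *Vdac1* and *Bnip3* from these libraries and assayed *Opa1*, *Dnm1l*, *Pink1* and *Bnip3l* in the same mouse model, so the direction in which the group moves is not independent evidence.

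Single-nucleus RNA sequencing was carried out on the tibialis anterior (TA), a fast muscle of the lower hind limb, to compare muscle with and without the transcriptional repressor BCL6. The KO group was M-*Bcl6* KO, Myf6-Cre+ *Bcl6* fl/fl, and the WT group was M-*Bcl6* WT, Myf6-Cre+ *Bcl6* wt/wt littermates, so both groups carried the Cre transgene, whose *Myf6* promoter drives it in skeletal muscle. Each group was 2 male C57BL/6 mice, 6 weeks old, whose right and left TA nuclei were pooled into 1 library and sorted on 7-AAD. There were therefore no replicate libraries and no test between the groups, and all intervals given here are 95% intervals that cover counting error only. In the pairs of values below, the library labelled WT comes first.

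The 2 libraries held 3798 and 4096 barcodes with 11974138 and 12026013 unique molecular identifiers (UMIs, each standing for 1 captured RNA molecule), and shared 6 barcodes. After the filters, 2407 and 3086 myonuclei, the nuclei of muscle fibres, held 8832129 and 9626680 of these UMIs. The count of the targeted gene was higher, not lower, in the library labelled KO. In myonuclei *Bcl6* had 1475 and 4832 UMIs, or 167 CPM (159 to 176) and 502 CPM (488 to 516), where CPM is UMIs of a gene per 1000000 UMIs of all genes, a log2 ratio of 1.59. A count over the whole gene does not separate the floxed exons from the others, so it could not check the deletion. Every direction below is that of the library labelled KO against the library labelled WT, and so rests on those labels.

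VDAC channels are pores through which metabolites, ATP and calcium cross the outer mitochondrial membrane, and they are docking sites for hexokinase. In mitophagy, damaged mitochondria are marked either through the kinase PINK1, which starts their coating with ubiquitin, or by receptors such as BNIP3, NIX (from *Bnip3l*) and FUNDC1, which sit in the outer membrane and bind the autophagosome directly. Fission by DRP1 (from *Dnm1l*) cuts off the pieces that are to be removed, while OPA1 fuses inner membranes and shapes cristae. In skeletal muscle, *Bnip3* is known as a gene induced by fasting, hypoxia and FoxO factors.

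In myonuclei all 9 genes had lower CPM in the library labelled KO, but the size differed widely between them, and the direction of the smallest depended on the scaling. With median-of-ratios size factors the log2 ratio of *Fundc1* was 0.06, and with fibre types weighted equally that of *Pink1* was 0.06. *Bnip3*, *Vdac1* and *Dnm1l* were at least 1.5-fold lower, and *Fundc1*, *Pink1* and *Bnip3l* had intervals that included no difference. Thus 3 of 9 were past 1.5-fold, against 9.88% of the 6976 genes with at least 200 UMIs. None of the 9 was 1.5-fold higher, against 6.79% of all those genes. The median log2 ratio was −0.34 for the 9 genes and −0.15 for all 6976, 7 of the 9 were below that gene median, and 5 had an interval wholly below it. With that median, most of the 6976 genes were below 0 as well. The shares of all genes below 0, or with an interval wholly below the median, were not computed. The counts of 9 and 5 therefore stand without a background. Taken relative to the gene median, the log2 ratio of *Bnip3* was −0.84, that of *Vdac1* −0.60 and that of *Dnm1l* −0.48. In a sum over myonuclei, fewer nuclei with a transcript and less of it per nucleus cannot be told apart.

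*Bnip3* had 2913 and 1603 UMIs, or 329.8 CPM (318 to 342) and 167 CPM (158 to 175). This amounted to a log2 ratio of −0.99 (−1.07 to −0.90), and the gene lay at percentile 2.87 of all genes ordered from the lowest ratio. With every nucleus thinned to 1000 UMIs, which left out 26 and 75 shallower myonuclei, 24.6% (22.9 to 26.4) and 14.8% (13.5 to 16.1) of myonuclei held a *Bnip3* UMI. The unthinned shares were 49.9% and 34.4%, at median depths of 3127 and 2707 UMIs. Nuclei like those of fibro-adipogenic progenitors (FAP-like), at 1972 and 1747 UMIs, had thinned shares of 3.67% and 2.19% for *Bnip3*. The giant sarcomere gene *Ttn*, which belongs to muscle, had a UMI in 48.2% and 47.8% of the same thinned FAP-like nuclei. Myonuclei with at least 3 *Bnip3* UMIs were 378 of 2407 and 127 of 3086.

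*Vdac1*, the best known of the 3 channels, had 1981 and 1289 UMIs, or 224 CPM (215 to 234) and 134 CPM (127 to 141). Its log2 ratio was −0.74 (−0.85 to −0.64). *Vdac2*, the isoform known for holding the death effector BAK in check, had 109.8 CPM (103 to 117) and 78.9 CPM (73.4 to 84.8), a log2 ratio of −0.48 (−0.62 to −0.34). *Vdac3* differed least of the 3, with 139 CPM (131 to 147) and 119.8 CPM (113 to 127), a log2 ratio of −0.21 (−0.33 to −0.10). The interval of the ratio of *Vdac1* did not overlap that of *Vdac2* or *Vdac3*.

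*Dnm1l* had 786 and 556 UMIs, or 89.0 CPM (82.9 to 95.4) and 57.8 CPM (53.1 to 62.8). Its log2 ratio of −0.62 (−0.78 to −0.47) lay just past 1.5-fold, and it fell short of 1.5-fold with TMM scaling, at −0.51, and after thinning to 1000 UMIs per nucleus, at −0.43. *Opa1* had 1069 and 922 UMIs, or 121 CPM (114 to 129) and 95.8 CPM (89.7 to 102), a log2 ratio of −0.34 (−0.47 to −0.21). After thinning the ratio of *Opa1* was −0.10.

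The remaining receptors and the kinase were scarce. *Bnip3l* had 512 and 494 UMIs, or 58.0 CPM (53.1 to 63.2) and 51.3 CPM (46.9 to 56.0), with a log2 ratio of −0.18 (−0.36 to 0.01). *Pink1* had 241 and 238 UMIs, or 27.3 and 24.7 CPM, with a log2 ratio of −0.14 (−0.41 to 0.12). *Fundc1* had 174 and 181 UMIs, or 19.7 CPM (16.9 to 22.9) and 18.8 CPM (16.2 to 21.7), with a log2 ratio of −0.07 (−0.38 to 0.24). At this depth no difference was detectable for these 3 genes, and a ratio as low as that of *Bnip3* lies outside their intervals.

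**Figure D1:**
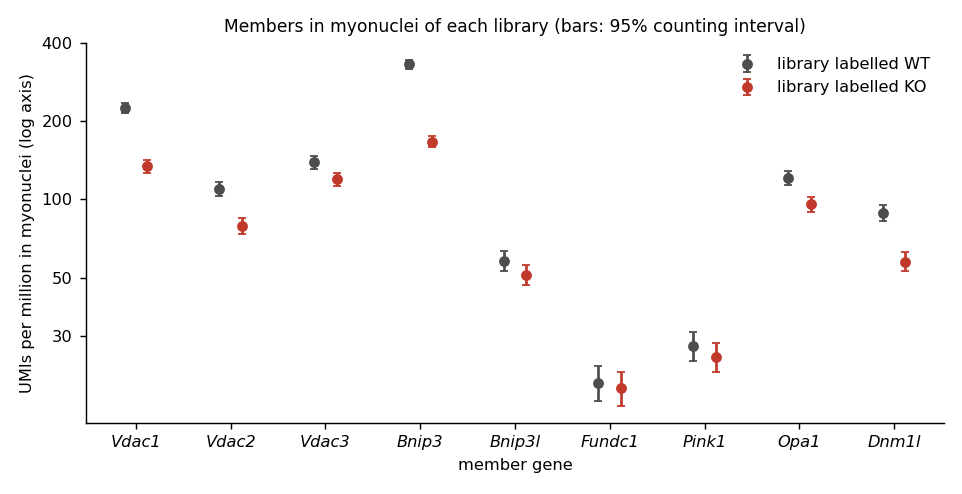
UMIs per 1000000 in myonuclei on a log axis for the 9 genes, 1 point for each library with its 95% counting interval. *Bnip3* (329.8 and 167 CPM) and *Vdac1* (224 and 134 CPM) show the widest gaps between the libraries labelled WT and KO, and the intervals of *Bnip3l*, *Fundc1* and *Pink1* overlap.

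Levels of different genes were also set side by side per kilobase of exon. A UMI stands for 1 captured molecule whatever the length of the gene, so this order can differ from that by CPM. In the library labelled WT *Opa1* had 121 CPM and *Dnm1l* 89.0 CPM, the reverse of their order per kilobase of exon. In the library labelled WT *Bnip3* had 146 CPM per kilobase, *Vdac1* 85.6, *Vdac3* 25.6, *Vdac2* 23.0, *Dnm1l* 17.1, *Opa1* 15.4, *Bnip3l* 15.0, *Pink1* 10.2 and *Fundc1* 8.37. With 73.5 and 51.1 CPM per kilobase, *Bnip3* and *Vdac1* were also first and second in the library labelled KO. *Bnip3* was thus the most abundant of the 3 receptors on this scale in both libraries. Nuclear RNA also holds introns, and per kilobase of the whole gene *Bnip3* had 17.7, *Vdac3* 8.30 and *Vdac1* 7.86 CPM in the library labelled WT, so the order of *Vdac1* and *Vdac3* depends on the length used.

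In GRCm38 with GENCODE M21, all 9 are protein-coding genes. *Bnip3* (ENSMUSG00000078566) is on the reverse strand (chromosome 7, 138890836 to 138909519). The gene *Gm45507* overlaps it on the opposite strand and had 47 and 20 UMIs in myonuclei. *Vdac1* (ENSMUSG00000020402) is on the forward strand (chromosome 11, 52360860 to 52389397). *Dnm1l* (ENSMUSG00000022789) is on the reverse strand (chromosome 16, 16312230 to 16358959) and overlaps *Gm49521* on the other strand, which had 42 and 51 UMIs. *Opa1* (ENSMUSG00000038084) is on the forward strand (chromosome 16, 29579334 to 29654884), so that *Dnm1l*, *Opa1* and *Bcl6* share a chromosome. *Vdac2* (ENSMUSG00000021771) overlaps the end of *Comtd1*, which had 7 and 18 UMIs, on the opposite strand. The counting is not stated to use strand, so reads of such pairs may not be told apart.

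Promoters, taken from RefSeq (GRCm38.p6) as the 250 bases before to 50 bases after a transcript start, were found for 6 of the 9 genes, all but *Vdac2*, *Vdac3* and *Bnip3l*. Those of the 3 genes that were at least 1.5-fold lower are printed 5′ to 3′ on the strand of the gene, in lower case, with capitals for matches on either strand to 7 motifs. The motifs were TTCNNNGAA (letters that BCL6 and STAT factors share), the hypoxia-inducible factor cores ACGTG and GCGTG, the E-box CACGTG (which holds ACGTG on both strands), the FOXO motif GTAAACA, the oestrogen-related receptor motif TNAAGGTCA and the NRF1 motif CGCATGCG. The windows were chr7:138909457-138909756 on the reverse strand for *Bnip3*, chr11:52360601-52360900 on the forward strand for *Vdac1* and chr16:16358982-16359281 on the reverse strand for *Dnm1l*.
Bnip3: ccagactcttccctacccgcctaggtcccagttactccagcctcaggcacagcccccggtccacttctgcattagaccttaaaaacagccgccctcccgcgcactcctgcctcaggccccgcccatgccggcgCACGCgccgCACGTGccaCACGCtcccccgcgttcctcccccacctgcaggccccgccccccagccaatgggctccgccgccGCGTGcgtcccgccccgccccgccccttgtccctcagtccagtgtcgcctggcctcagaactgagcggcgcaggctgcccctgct
Vdac1: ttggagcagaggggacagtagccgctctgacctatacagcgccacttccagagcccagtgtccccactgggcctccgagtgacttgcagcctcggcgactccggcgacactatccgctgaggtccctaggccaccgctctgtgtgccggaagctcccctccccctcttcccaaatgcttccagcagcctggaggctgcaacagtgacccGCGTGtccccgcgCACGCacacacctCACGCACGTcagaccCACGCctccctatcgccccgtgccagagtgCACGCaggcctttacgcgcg
Dnm1l: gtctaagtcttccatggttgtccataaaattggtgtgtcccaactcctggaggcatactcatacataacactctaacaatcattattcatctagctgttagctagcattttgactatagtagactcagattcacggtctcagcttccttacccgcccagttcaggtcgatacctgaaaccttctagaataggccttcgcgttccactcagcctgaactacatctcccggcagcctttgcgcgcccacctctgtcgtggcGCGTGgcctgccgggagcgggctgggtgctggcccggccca

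The *Bnip3* window held ACGTG 2 times, both within 1 CACGTG, and GCGTG 3 times. The *Vdac1* window held GCGTG 5 times and ACGTG 1 time, the latter overlapping 1 of the former. The *Dnm1l* window held GCGTG 1 time, as did that of *Pink1*, and the *Fundc1* window held none of the 7 motifs. The *Opa1* window held CGCATGCG 1 time. The letters TTCNNNGAA were in none of the 6 windows and were 1 time in that of *Bcl6*. Of 32851 RefSeq promoters of this length, 32.4% hold GCGTG, 19.6% ACGTG, 8.30% TTCNNNGAA, 7.15% CACGTG, 3.65% GTAAACA, 1.87% CGCATGCG and 1.28% TNAAGGTCA. Matches of the short cores are therefore frequent in promoters at large.

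To set fibre types side by side, each myonucleus was assigned to its main myosin heavy chain gene, the one with most UMIs, *Myh4* for type IIb, *Myh1* for type IIx and *Myh2* for type IIa fibres, which differ in speed and in oxidative capacity. *Myh4* was the main gene in 701 and 612 myonuclei, *Myh1* in 1155 and 1175, and *Myh2* in 236 and 482. Another 274 and 732 nuclei held no *Myh* UMI, and 39 and 66 had a tie. *Myh7*, the slow myosin, was the main gene in 2 and 19 nuclei, where none of the 9 genes had more than 20 UMIs.

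Which of the genes were lower differed between these groups. In *Myh4*-main nuclei 4 of 9 genes were at least 1.5-fold lower (*Bnip3*, *Vdac1*, *Fundc1* and *Dnm1l*), against 11.0% of all genes with at least 200 UMIs in both libraries together there. In *Myh1*-main nuclei 4 of 9 were (*Vdac1*, *Bnip3*, *Dnm1l* and *Opa1*), against 11.2%, and in *Myh2*-main nuclei 1 was (*Vdac2*), against 8.09%. With TMM scaling *Dnm1l* fell short of 1.5-fold in *Myh1*-main nuclei, at −0.52, as did *Opa1* after thinning to 1000 UMIs, at −0.19. Every thinned value by fibre type, here and below, used groups remade from the thinned *Myh* counts, so their nuclei differ. Among nuclei without a *Myh* UMI 3 of 9 were (*Bnip3*, *Pink1* and *Vdac1*), against 12.1%. Of the 9 genes, 7, 7, 6 and 4 themselves had 200 UMIs in these groups, and *Fundc1* in *Myh4*-main and *Pink1* in *Myh*-negative nuclei, which are counted here, did not. The median log2 ratios of the 9 genes were −0.39 in *Myh4*-main, −0.43 in *Myh1*-main, −0.40 in *Myh2*-main and −0.40 in *Myh*-negative nuclei, where the medians of all genes were −0.13, −0.15, −0.12 and −0.11.

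*Bnip3* was lower in each group, most in *Myh4*-main nuclei. There it had 469 CPM (443 to 497) and 174 CPM (155 to 195), a log2 ratio of −1.43 (−1.62 to −1.25). In *Myh1*-main nuclei it had 217 CPM (204 to 231) and 123 CPM (112 to 134), a log2 ratio of −0.82 (−0.98 to −0.66). These ratios differed by 0.61 (0.37 to 0.85). In *Myh2*-main nuclei it had 187 CPM (159.9 to 218) and 126 CPM (109 to 144), a log2 ratio of −0.58 (−0.88 to −0.27), which differed from that of *Myh4*-main nuclei by 0.86 (0.51 to 1.20). Cluster 3 of the clustering described below held 298 and 132 of the *Myh4*-main nuclei, with 897 and 134 of their *Bnip3* UMIs. The ratio of *Myh4*-main nuclei was −1.33 (−1.60 to −1.06) in cluster 3 and −1.29 (−2.08 to −0.58) in cluster 5. In cluster 2 it was −0.38 (−0.72 to −0.04). The part of the cluster mix in the differences between fibre types was not tested. Nuclei with no *Myh* UMI had the highest level of both libraries, 668 CPM (614 to 727) and 269 CPM (247 to 293), with a log2 ratio of −1.31 (−1.49 to −1.14). Cluster 3 held 136 of the 274 and 274 of the 732 such nuclei, with 455 and 285 of their *Bnip3* UMIs. In the library labelled WT, *Myh*-negative nuclei had 1020 CPM in cluster 3 and 456 in cluster 2. They had 292 in cluster 5, 215 in cluster 0 and 48.2 in cluster 1. Their log2 ratio was −1.36 in cluster 3 and −1.25 in cluster 2, and its interval included 0 in clusters 0, 1 and 5.

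The *Myh2*-main over the *Myh4*-main level of *Bnip3* gave a log2 ratio of −1.32 (−1.57 to −1.09) in the library labelled WT, a level 2.50-fold lower. For the library labelled KO this contrast came to −0.47 (−0.73 to −0.21). Fibre type and cluster overlapped here, because cluster 3 held 298 *Myh4*-main and 2 *Myh2*-main nuclei of the library labelled WT. In cluster 0 of that library, the 88 *Myh2*-main nuclei had 277 CPM (226 to 338). The 14 *Myh4*-main nuclei there had 186 CPM (84.9 to 353). The part of each in the contrast was not tested. After thinning, which also remade the groups, the contrasts were −0.77 and −0.34, nearer to each other. With the main *Myh* gene required to hold at least 3 UMIs and 80% of the *Myh* UMIs, that of the library labelled KO was −0.20.

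*Vdac1* had another pattern. It had 271 CPM (256 to 287) and 143 CPM (131 to 155) in *Myh1*-main nuclei, a log2 ratio of −0.93 (−1.07 to −0.78). In *Myh4*-main nuclei it had 162 CPM (146 to 178) and 86.1 CPM (72.8 to 101), a log2 ratio of −0.91 (−1.19 to −0.63). In *Myh2*-main nuclei it had 221 CPM (191 to 254) and 192 CPM (172 to 214), and the log2 ratio of −0.20 (−0.46 to 0.06) included no difference. The ratios of *Myh2*-main and *Myh4*-main nuclei differed by 0.71 (0.33 to 1.08). The highest level of *Vdac1* was therefore in *Myh1*-main nuclei of the library labelled WT and in *Myh2*-main nuclei of the library labelled KO. Its *Myh2*-main level exceeded its *Myh4*-main level by a log2 ratio of 0.45 (0.20 to 0.70) in the former library and 1.16 (0.87 to 1.45) in the latter. After thinning, the ratios between the libraries were −0.66, −0.68 and −0.31 in *Myh1*-, *Myh4*- and *Myh2*-main nuclei, so those of *Myh4*- and *Myh2*-main nuclei lay nearer to each other. The thinned contrasts of *Myh2*-main over *Myh4*-main nuclei were 0.74 and 1.11.

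*Vdac2* was lower in the 3 fibre types, with log2 ratios of −0.39 (−0.71 to −0.07), −0.43 (−0.63 to −0.24) and −0.60 (−0.98 to −0.22) in *Myh4*-, *Myh1*- and *Myh2*-main nuclei. After thinning, its ratios in *Myh1*- and *Myh2*-main nuclei were further apart, at −0.27 and −0.90. *Vdac3* had 130.5 and 137 CPM in *Myh4*-main nuclei, a log2 ratio of 0.07 (−0.18 to 0.32). In *Myh2*-main nuclei it had 170.4 and 129 CPM, a log2 ratio of −0.41 (−0.71 to −0.10). The ratios of *Vdac3* in *Myh2*-main and *Myh4*-main nuclei differed by −0.48 (−0.86 to −0.09). After thinning, *Vdac3* had log2 ratios of −0.32 and −0.64 in *Myh4*- and *Myh2*-main nuclei.

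*Opa1* was lower in *Myh1*-main nuclei, where it had 139 CPM (128 to 149.9) and 91.8 CPM (82.7 to 102), a log2 ratio of −0.59 (−0.78 to −0.41), or −0.19 after thinning. In *Myh4*-main nuclei it had 96.5 and 93.6 CPM, a log2 ratio of −0.04 (−0.34 to 0.25), and in *Myh2*-main nuclei 131 and 126 CPM, a log2 ratio of −0.05 (−0.39 to 0.29). The *Myh1*-main and *Myh4*-main ratios differed by −0.55 (−0.89 to −0.21), and after thinning those of *Myh4*- and *Myh2*-main nuclei were 0.21 and 0.32. *Dnm1l* was lower in all 3, with log2 ratios of −0.79 (−1.21 to −0.39), −0.64 (−0.86 to −0.42) and −0.53 (−0.94 to −0.11) in *Myh4*-, *Myh1*- and *Myh2*-main nuclei. Its ratio in *Myh2*-main nuclei was −0.16 after thinning. Both GTPases had higher CPM in *Myh2*-main than in *Myh4*-main nuclei of either library, *Opa1* by a log2 ratio of 0.44 (0.11 to 0.77) and 0.43 (0.13 to 0.74) and *Dnm1l* by 0.46 (0.08 to 0.84) and 0.73 (0.29 to 1.17).

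*Fundc1* had 29.6 CPM (23.3 to 37.2) and 16.2 CPM (10.8 to 23.4) in *Myh4*-main nuclei, on 74 and 28 UMIs, a log2 ratio of −0.87 (−1.55 to −0.23). In *Myh1*-main nuclei the 72 and 80 UMIs gave a log2 ratio of 0.31 (−0.17 to 0.79), and these ratios differed by 1.18 (0.41 to 1.96). Thinned, they were −1.64 and −0.19. *Bnip3l* had log2 ratios of 0.03 (−0.34 to 0.41), −0.28 (−0.56 to −0.01) and −0.40 (−0.99 to 0.20) in *Myh4*-, *Myh1*- and *Myh2*-main nuclei, and *Pink1* of 0.04 (−0.45 to 0.52), −0.10 (−0.54 to 0.33) and 0.21 (−0.55 to 1.01). Only that of *Bnip3l* in *Myh1*-main nuclei had an interval without 0, and that of *Pink1* in *Myh2*-main nuclei was −0.74 after thinning. The intervals for differences of ratios were not adjusted for the 27 computed.

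**Figure D2:**
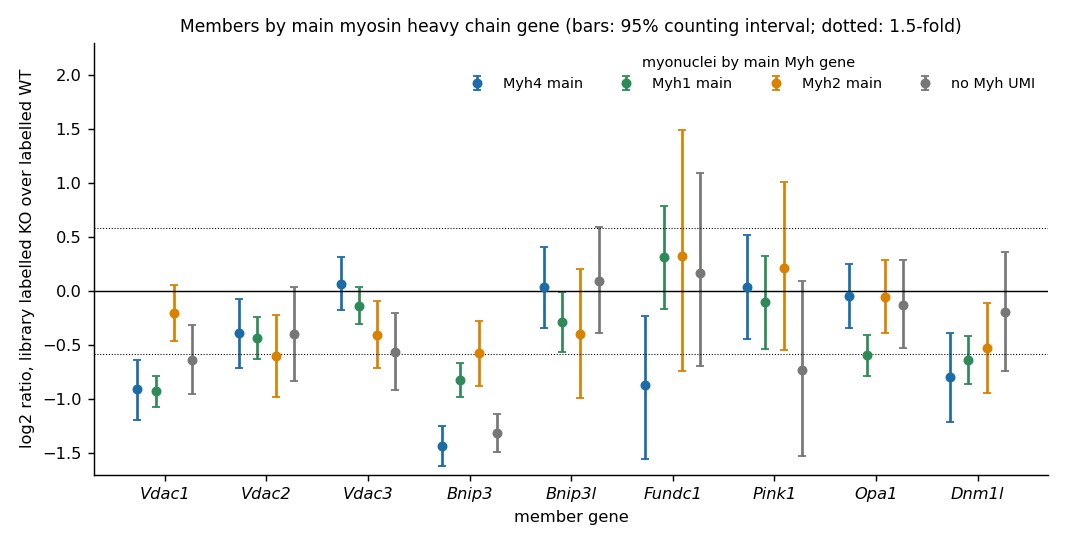
Log2 ratio of the library labelled KO over the library labelled WT for the 9 genes, with points for myonuclei grouped by main *Myh* gene, bars for 95% counting intervals and dotted lines at 1.5-fold. *Bnip3* lies lowest in *Myh4*-main nuclei (−1.43), and of the groups the *Vdac1* ratio is nearest 0 in *Myh2*-main nuclei (−0.20).

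Within a library, *Myh2*-main against *Myh4*-main nuclei gave 2 of 9 genes at least 1.5-fold lower (*Bnip3* and *Fundc1*) and 0 higher in the library labelled WT, against 20.0% lower and 15.9% higher of all genes tested. In the library labelled KO 1 of 9 was lower (*Bnip3l*, at a log2 ratio of −0.76) and 2 were higher (*Vdac1* and *Dnm1l*), against 16.1% and 19.3%. The median log2 ratio of the 9 genes was 0.33 in the former library and −0.06 in the latter, beside medians of all genes of −0.06 and −0.04. These shares are close to the background, and the counts between fibre types are no result about the 9 genes.

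Clustering, from which the 9 genes were left out, placed most myonuclei in 5 clusters, to which no fibre type was assigned. Clusters 2 and 3 both led with markers of type IIb fibres, cluster 2 with *Myh4* and *Mybpc2* beside the noncoding RNAs *Meg3*, *Rian* and *Mirg*, and cluster 3 with *Actn3* beside *Gpt2*, *Pfkfb3* and the atrophy ubiquitin ligase *Trim63*. Cluster 0 led with *Ppara* and *Ppargc1a*, regulators of oxidative metabolism, and cluster 1 with *Atf3*, *Myom3* and *Myh2*. Cluster 5 led with *H19*, *Igf2* and *Nr4a3*, and *Trim63* was among its leading genes too.

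*Bnip3* was concentrated in cluster 3. In the library labelled WT it had 839.8 CPM there, 321 in cluster 5, 236 in cluster 0, 180.4 in cluster 2 and 111 in cluster 1. Cluster 3 held 51.2% of all myonuclear *Bnip3* UMIs there on 20.1% of the UMIs of all genes. In the library labelled KO it had 367 CPM in cluster 3, 209 in cluster 5, 155 in cluster 0, 133 in cluster 2 and 64.8 in cluster 1, and cluster 3 held 30.1% of its UMIs on 13.7% of all. The order of the 5 clusters was the same in both libraries.

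This contrast lay between the clusters that lead with type IIb markers. Against cluster 2, cluster 3 had 4.66-fold more *Bnip3* in the library labelled WT, a log2 ratio of 2.22 (2.00 to 2.44), and 2.76-fold more in the library labelled KO, a log2 ratio of 1.46 (1.23 to 1.70). It was there also at equal main *Myh* gene. Among *Myh4*-main nuclei of the library labelled WT, the 298 of cluster 3 had 773 CPM and the 308 of cluster 2 had 167 CPM. Those of the library labelled KO had 309 and 129 CPM. *Dnm1l* went the other way, with log2 ratios of cluster 3 over cluster 2 of −1.47 (−1.90 to −1.04) and −0.82 (−1.43 to −0.24) in the libraries labelled WT and KO, as did *Vdac3*, at −0.60 (−0.90 to −0.31) and −1.28 (−1.64 to −0.92). For *Opa1* this ratio was −0.91 (−1.26 to −0.57) and −0.29 (−0.66 to 0.08), so that in the library labelled KO the interval included 0. *Vdac1* did not differ detectably in either, at 0.00 (−0.29 to 0.30) and 0.08 (−0.27 to 0.42).

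Between the libraries, *Bnip3* was lower in all 5 clusters. The log2 ratios were −1.20 (−1.35 to −1.05) in cluster 3, −0.78 (−1.10 to −0.45) in cluster 1, −0.62 (−0.88 to −0.36) in cluster 5, −0.60 (−0.77 to −0.44) in cluster 0 and −0.44 (−0.73 to −0.15) in cluster 2. Without the nuclei of cluster 3 the ratio over myonuclei was −0.58, slightly short of 1.5-fold. With the 5 clusters weighted equally it was −0.86. *Vdac1* was also lower in all 5, with log2 ratios of −0.72 in cluster 0, −0.60 in cluster 2, −0.53 in cluster 3 and −0.51 in cluster 1. In cluster 5 *Vdac1* had 279 CPM (242 to 319.5) and 80.1 CPM (65.2 to 97.4), a log2 ratio of −1.80 (−2.16 to −1.45) and rank 9 from the lowest of 1655 genes. That cluster held 174 and 398 nuclei, or 7.23% and 12.9% of myonuclei.

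*Dnm1l* had its lowest ratio in cluster 2, at −1.19 (−1.62 to −0.77), with 114 and 49.7 CPM, at rank 20 from the lowest of 2288 genes. In the other 4 clusters its ratio was between −0.77 and −0.40. *Opa1* was lower in clusters 0, 1 and 2, with log2 ratios between −0.54 and −0.45, and had intervals that included 0 in clusters 3 and 5. *Vdac3* was lower in cluster 3, at −0.76 (−1.14 to −0.39), and in cluster 1, at −0.38 (−0.61 to −0.15). *Bnip3l*, for which no difference was detectable over all myonuclei, had a log2 ratio of −0.61 (−0.96 to −0.26) in cluster 0. A lower level within a cluster and a different mix of nuclei in it cannot be told apart.

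**Figure D3:**
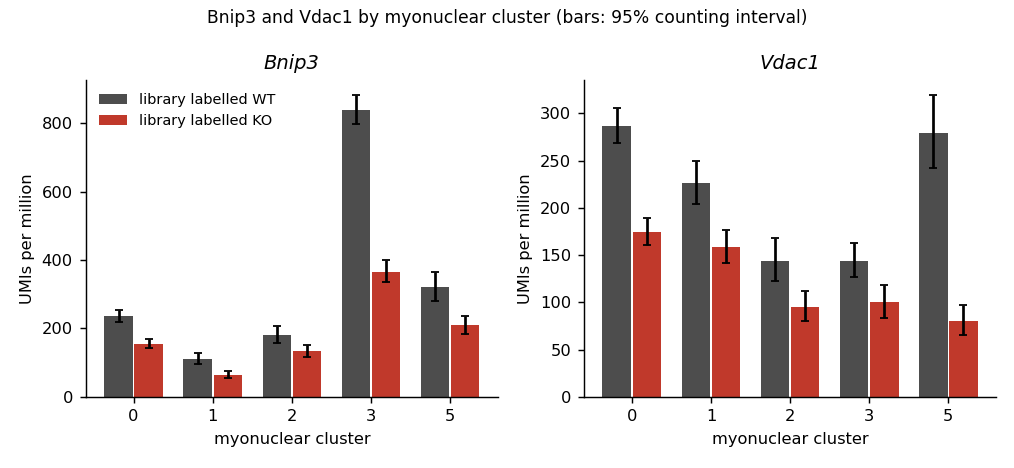
UMIs per 1000000 of *Bnip3* (left) and *Vdac1* (right) in the 5 myonuclear clusters, 1 mark for each library with lines for 95% counting intervals. *Bnip3* peaks in cluster 3 of both libraries (839.8 and 367 CPM), and *Vdac1* shows its widest gap in cluster 5 (279 and 80.1 CPM).

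At 1000 UMIs per nucleus the variance of *Bnip3* over myonuclei divided by its mean was 1.41 and 1.20, where independent draws at 1 rate give 1. This value grows with the mean, which was 0.340 and 0.174 UMIs, the highest of the 9 genes, so the genes were not ranked by it. The most *Bnip3* UMIs in 1 nucleus were 14 and 8.

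Non-muscle nuclei numbered 1256 and 847, and the 9 genes were sparse there, with between 28 and 250 UMIs in a library. *Dnm1l* was about as abundant there as in myonuclei, at 109% and 117% of its myonuclear CPM, and *Opa1* had 80.4% and 93.1%. *Vdac1* had 15.3% and 39.8%, and *Bnip3* had 7.79% and 22.9%, the lowest shares of the 9. The summed myonuclear markers had 4.22% and 4.99% of their myonuclear level in the same nuclei.

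*Vdac1* and *Bnip3* were higher, not lower, in the non-muscle nuclei of the library labelled KO. *Vdac1* had 88 and 95 UMIs, or 34.3 CPM (27.5 to 42.2) and 53.2 CPM (43.1 to 65.1), a log2 ratio of 0.64 (0.20 to 1.07). *Bnip3* had 66 and 68 UMIs, or 25.7 CPM (19.9 to 32.7) and 38.1 CPM (29.6 to 48.3), a log2 ratio of 0.57 (0.06 to 1.08). *Bnip3l* had 42.1 and 56.6 CPM, a log2 ratio of 0.43 (0.02 to 0.83). *Dnm1l* was lower there as in myonuclei, with 97.0 and 67.8 CPM, a log2 ratio of −0.52 (−0.84 to −0.20). Of the 9 genes, 1 was thus 1.5-fold higher, against 4.15% of 8890 genes with at least 50 UMIs, and 0 were 1.5-fold lower, against 6.72%. Summed myonuclear markers moved in the same direction, with 4120 and 5665 CPM in non-muscle nuclei. They ranged from 2255 to 11732 CPM over the 6 larger classes of both libraries, none of the 10 markers was at 0 in any, and their part in these ratios was not tested. For *Bnip3* the direction was not the same in all 6 classes. The share of thinned nuclei with a *Bnip3* UMI was 3.67% (2.07 to 5.98) and 2.19% (0.81 to 4.71) in FAP-like nuclei. In endothelial-like nuclei it was 3.27% (1.07 to 7.46) and 6.14% (2.50 to 12.2), and the intervals overlapped in both classes. The part of the class mix was not tested.

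By class, *Vdac1* was higher in FAP-like nuclei of the library labelled KO, with 27.1 CPM (18.4 to 38.5) and 48.5 CPM (33.8 to 67.4), a log2 ratio of 0.84 (0.10 to 1.59). Summed myonuclear markers in these nuclei were 2255 and 4327 CPM. It was also higher in pericyte- or smooth muscle-like nuclei, with 32.7 CPM (16.9 to 57.0) and 73.4 CPM (45.5 to 112), a log2 ratio of 1.17 (0.08 to 2.33), where the markers had 4297 and 6207 CPM. In the other 4 classes the interval of its ratio included 0, at −0.63 (−2.76 to 1.17) in macrophage-like, −0.11 (−1.49 to 1.20) in endothelial-like, 0.51 (−0.62 to 1.65) in muscle stem cell (MuSC)-like and 1.49 (−0.52 to 4.01) in tenocyte-like nuclei. *Dnm1l* was lower in endothelial-like nuclei, on 46 and 14 UMIs, a log2 ratio of −1.18 (−2.16 to −0.30). In FAP-like nuclei it had a ratio of −0.47 (−1.05 to 0.08), in MuSC-like nuclei −1.02 (−2.22 to 0.06) and in pericyte- or smooth muscle-like nuclei −0.05 (−0.79 to 0.67).

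*Dnm1l* had its highest level in macrophage-like nuclei of both libraries, 184 CPM (127 to 258) and 117 CPM (62.4 to 200.3), and *Opa1* had 150.4 CPM (99.1 to 219) there in the library labelled WT. *Bnip3* in tenocyte-like nuclei had 119 CPM (68.1 to 193) and 104 CPM (58.4 to 172). Summed myonuclear markers in tenocyte-like nuclei were 9994 and 9981 CPM. In macrophage-like nuclei *Bnip3* had 0 UMIs of 179556 in the library labelled WT, an interval that reaches 20.5 CPM, and 5 UMIs in the library labelled KO.

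Over 4 groups of myonuclei and 6 non-muscle classes, ordered by level, all 9 pairs of neighbours had overlapping intervals in both libraries for *Vdac3*, *Bnip3l*, *Fundc1*, *Pink1*, *Opa1* and *Dnm1l*. For *Vdac1* 7 and 7 pairs overlapped, for *Bnip3* 6 and 7, and for *Vdac2* 8 and 9. By this rule neighbouring groups were apart in a few places, and for most of the genes nowhere. The rule is stricter than an interval of the ratio, so overlap does not mean that 2 groups cannot be ordered. In the library labelled WT, *Vdac3* in *Myh2*-main over *Myh1*-main nuclei, which are neighbours, had a log2 ratio of 0.31 (0.05 to 0.57). Nuclei like those of the myotendinous and neuromuscular junctions, Schwann cells and lymphatic endothelium, and 1 unnamed cluster, held at most 12 UMIs of any of the 9 genes in a library.

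**Figure D4:**
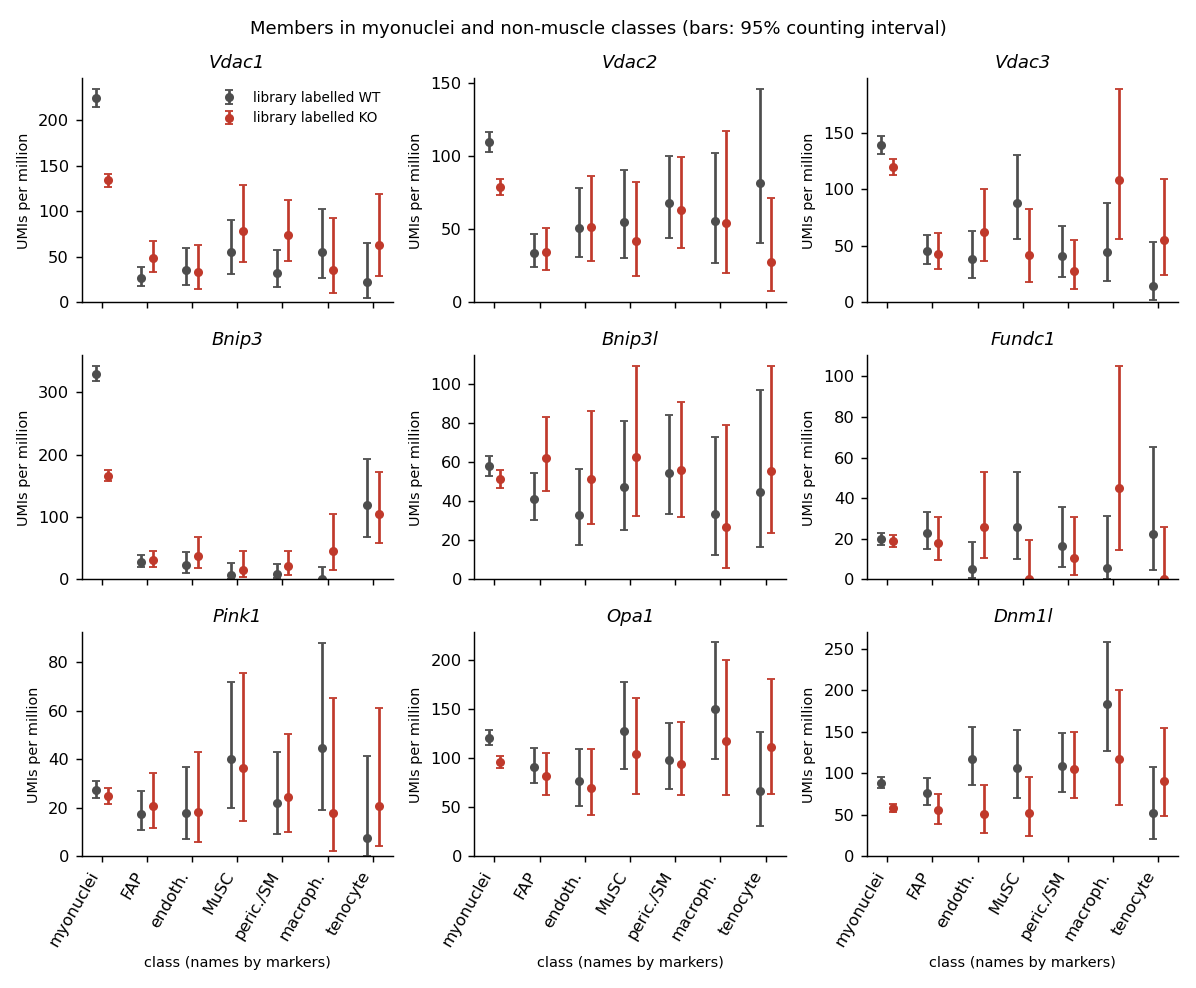
UMIs per 1000000 of each of the 9 genes in myonuclei and in 6 non-muscle classes named by markers (FAP, fibro-adipogenic progenitor; endoth., endothelial; MuSC, muscle stem cell; peric./SM, pericyte or smooth muscle; macroph., macrophage), points for each library and bars for 95% counting intervals. *Vdac1* and *Bnip3* are highest in myonuclei of both libraries, whereas *Dnm1l* is highest in macrophage-like nuclei (184 and 117 CPM).

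Across 25 combinations of group and library with at least 20000 UMIs, a gene whose log2(CPM + 10) closely followed that of *Vdac1* among 5716 genes was *Prepl* (Pearson r = 0.91). For *Bnip3* the closest were *Nmt1* (0.87) and the ubiquitin ligase *Trim63* (0.86). In myonuclei *Nmt1* and *Trim63* had log2 ratios between the libraries of −0.48 and 0.02. For the other genes the closest were *Ube3a* (0.87) and *Smg1* (0.86) for *Vdac3*, *Luc7l3* (0.83) and *Naa15* (0.81) for *Pink1*, *Tmed5* (0.83) and *Rragc* (0.83) for *Dnm1l* and *Mtdh* (0.79) and *Cbwd1* (0.79) for *Opa1*. They were *Polr3b* (0.78) and *Zfp638* (0.76) for *Vdac2*, *Gtpbp8* (0.75) and *Aimp1* (0.75) for *Fundc1* and *Polr3gl* (0.74) and *Ulk1* (0.72) for *Bnip3l*. Among the 9, *Vdac1* and *Vdac3* had r = 0.82, *Opa1* and *Dnm1l* 0.79, *Vdac1* and *Bnip3* 0.70 and *Bnip3* and *Dnm1l* −0.40. These are descriptions over groups that share libraries and differ in depth.

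The pathways around these genes were described by lists, with counts over list members with at least 200 UMIs in myonuclei, where 9.88% of all such genes were 1.5-fold lower and 6.79% higher. Of the mitophagy receptors and adaptors, 13 of 14 had enough UMIs, 1 was lower (*Bnip3*) and 0 were higher, and the median log2 ratio was −0.09, or −0.06 without the 3 receptors. The adaptor *Sqstm1* (p62) had 191 and 138 CPM, a log2 ratio of −0.47, and *Tax1bp1* one of −0.37. At the other end were the inner membrane receptor *Phb2* at 0.44, *Tex264*, best known as a receptor of endoplasmic reticulum autophagy, at 0.29 and the adaptor *Optn* at 0.22. Of the PINK1 pathway, 11 of 15 had enough UMIs and 0 were past 1.5-fold in either direction, with a median of −0.14. The deubiquitinase *Usp8* (−0.37), the kinase *Tbk1* (−0.36) and the protease *Parl* (−0.23) had the lowest ratios, and *Rhot2* (0.04) and *Ambra1* (−0.03) were among the highest.

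Of the 13 fission genes listed, 12 were found under their symbol and 9 had enough UMIs. Of these 9, *Dnm1l* alone was 1.5-fold lower, and the median was −0.26. *Mtfr1l* (−0.53) and *Mtfr1* (−0.32) followed, whereas the adaptors that bring DRP1 to the outer membrane had ratios of 0.43 for *Mief2*, 0.05 for *Mff* and −0.08 for *Mief1*. The fission factor *Gdap1*, below the limit of 200 UMIs and named after its values were seen, had 70 and 11 UMIs, a log2 ratio of −2.79 (−3.86 to −1.87). Of the fusion and cristae genes, 13 of 16 had enough UMIs, with a median of −0.14. *Miga1*, a mitoguardin of the outer membrane, was 1.5-fold lower with 37.8 and 24.8 CPM (−0.61), and *Opa1* (−0.34) and *Micos10* (−0.22) came next. Its paralog *Miga2* had a ratio of 0.29, *Slc25a46* one of 0.20 and the mitofusin *Mfn1* one of 0.15.

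Of the partners of VDAC and of outer membrane transport, 14 of 18 had enough UMIs and the median was −0.10. Only *Vdac1* was 1.5-fold lower, with *Vdac2* and the import pore *Tomm40* (−0.41) next. *Hk2*, a hexokinase that docks on VDAC, was higher with 222 and 398 CPM (0.84), as was the calcium uniporter regulator *Micu2* with 38.6 and 58.3 CPM (0.59), and mitochondrial creatine kinase *Ckmt2* had a ratio of 0.25. Neither rise was even over fibre types. In *Myh4*-, *Myh1*- and *Myh2*-main nuclei the ratios were 0.01, 0.92 and 0.83 for *Hk2* and 1.41, 0.21 and 0.30 for *Micu2*, given without intervals. Without the 3 channels the median was 0.01. Of the BCL2 family, to which BNIP3 is related, 4 of 8 had enough UMIs, with a median of 0.17. The survival gene *Bcl2l1* was higher with 23.7 and 84.6 CPM (1.84), and *Mcl1* (0.27), *Bax* (0.07) and *Bcl2l11* (0.04) were within 1.5-fold. Below the limit of 200 UMIs, and named after its values were seen, *Bcl2* had 97 and 55 UMIs, a log2 ratio of −0.94 (−1.45 to −0.45).

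All 11 genes of a panel that the study assayed by RT-qPCR had enough UMIs. *Dnm1l* alone was 1.5-fold lower, the median was −0.14, and with *Opa1*, *Dnm1l*, *Pink1* and *Bnip3l* left out it was −0.03. The mitochondrial transcription genes *Tfb1m*, *Tfam* and *Tfb2m* had ratios of −0.36, 0.29 and 0.05. Of the 13 transcripts encoded by mitochondrial DNA, which are made outside the nucleus, 10 had enough UMIs and 0 had a ratio below 0. Their median was 0.26, with *mt-Nd4* (0.69), *mt-Cytb* (0.53) and *mt-Co3* (0.28) highest and *mt-Nd3* (0.08), *mt-Nd1* (0.14) and *mt-Co1* (0.21) lowest. Of these, 1 was at least 1.5-fold higher, *mt-Nd4*. These lists were drawn up with results of these libraries known.

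**Figure D5:**
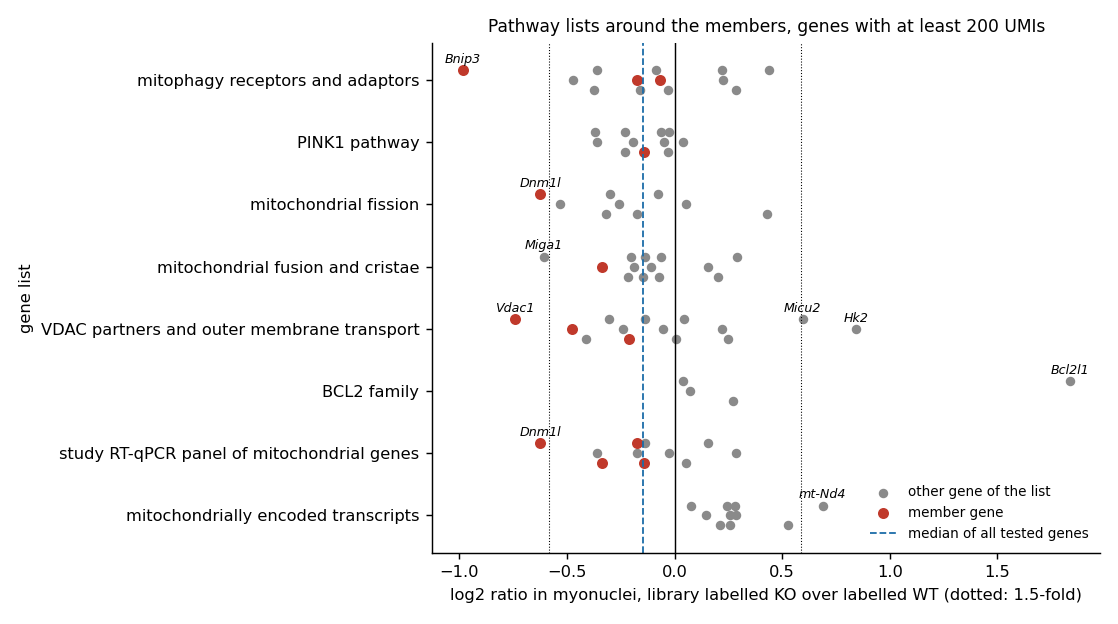
Log2 ratio in myonuclei of the library labelled KO over the library labelled WT for every gene of 8 lists with at least 200 UMIs, 1 point for each gene, red for the 9 genes of this account, dashed line at the median of all genes (−0.15) and dotted lines at 1.5-fold. *Bnip3*, *Vdac1* and *Dnm1l* lie at the low end of their lists, and *Bcl2l1* (1.84) and *Hk2* (0.84) at the high end of theirs.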

How the data were processed

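Single-nucleus RNA of TA muscle was read in 1 library for each genotype. As deposited, the values are raw UMI counts for each gene in each barcode, made by the authors with Cell Ranger 7.0.0 on mm10 (submitters' processing notes); the counting of introns and strand is not given in the sources used here. The labels name a 10x Multiome kit and the methods a 3′ v3.1 kit.

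The 9 genes, lists and rule for named genes were chosen with earlier results of these data known. Named genes were the 9 genes, *Bcl6*, the 3 lowest and 3 highest of each pathway list and the 2 genes most like each of the 9; 2 of the genes so named are not reported here. Nuclei were kept with at least 200 and at most 5000 genes and at most 5% mitochondrial UMIs, and the highest Scrublet scores (scanpy 1.11.5) were removed at 0.8% per 1000 barcodes, 115 and 134 nuclei. Scrublet's own threshold marked 8 and 4. Clusters came from Seurat 5.3.0 (R 4.3.3; RPCA integration, 2000 variable genes, 30 components, resolution 0.5), without the 9 genes or genes 2-fold different between libraries, and were named by markers. DoubletFinder, Harmony and tests over nuclei were not repeated. Counts were summed per group and library and divided by their total (CPM). Intervals are exact: Poisson for levels, Clopper-Pearson for shares, conditional on the total for ratios, and normal for a difference of ratios. Only the interval for ratios was tested, on simulated Poisson counts, which hold no spread beyond counting error. That test therefore cannot speak to such spread. Called means 1.5-fold; genes needed 200 UMIs over both libraries, or 50 in non-muscle classes.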

Additional observations from a re-analysis of the deposited data

Results flagged for a closer look

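*Vdac1* and *Bnip3* had opposite directions in myonuclei and in non-muscle nuclei, with intervals on opposite sides of 0. The log2 ratio of the library labelled KO over the library labelled WT was −0.74 in myonuclei and 0.64 in non-muscle nuclei for *Vdac1*, and −0.99 and 0.57 for *Bnip3*. With 1 library for each genotype the difference was not tested. Summed myonuclear markers in non-muscle nuclei were 4120 and 5665 CPM in the libraries labelled WT and KO.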

How the results depend on the processing

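No paired analysis was possible because each genotype was 1 library, and for the same reason no library could be left out. The median log2 ratio of the 9 genes in myonuclei stayed between −0.43 and −0.21 under 18 alternatives, 3 of them chosen after seeing the data (equal weight for clusters, no cluster 3, no *Myh*-negative nuclei). The count at least 1.5-fold lower was 2 or 3 in these. TMM scaling (log2 shift −0.12), median-of-ratios scaling, thinning, means over nuclei and a total without *Meg3*, *Rian* and *Mirg* left *Vdac1* and *Bnip3* as the 2; all nuclei left *Bnip3* and *Dnm1l*, and no cluster 3 left *Vdac1* and *Dnm1l*. With every ratio of 0.8 or less counted it was 5, against 28.8% of genes. Relative to the median gene it was 2, against 5.71%, and over all genes with a UMI in each library 18.5% were 1.5-fold lower. Medians by fibre type kept their sign under 4 alternatives each, and so did that of *Myh2*- over *Myh4*-main nuclei in the library labelled WT; in the library labelled KO the latter went from −0.06 to between −0.07 and 0.14. Of 342 values for single genes, 27 moved beyond their counting interval. In 21 the sign changed, 10 of them without thinning, and 6 of the 21 lay beyond the interval, all 6 on thinning to 1000 UMIs. Among these, in *Myh2*- over *Myh4*-main nuclei *Pink1* gave 0.23 in the library labelled WT and *Fundc1* gave 1.02 in the library labelled KO. The cause was not tested. Depth limits *Fundc1* and *Pink1* in every group and all 9 genes in non-muscle classes.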
